A study of Mus musculus with 5480 samples.

Results

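The cells described here are those that the authors had labelled airway smooth muscle in the lungs of mice at postnatal day 21 (P21) in normal air. The label and the group of each cell chose them, and there were 113, of 835 cells at P21 and 5480 cells in the series. The female mouse gave 58 of them, 11.1% of its cells, and the male gave 55, 17.7% of its cells. All 113 came from the mesenchymal sort, a flow cytometry gate for the connective tissue cells of distal lung. The other P21 subtypes with at least 10 cells in both mice were adventitial fibroblasts (238 cells), alveolar fibroblasts (250), pericytes (145) and vascular smooth muscle (52).

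The series profiled single mesenchymal cells of the developing mouse lung with plate-based sequencing, in which Tn5 transposase cuts and tags the DNA copies of a cell's RNA. It held 10 mice, 1 female and 1 male in each of 5 groups. These were embryonic day 18.5, then P1, P7 and P21 with normal air to breathe, and a further P7 group kept in hyperoxia, which is oxygen-enriched air. No strain, genotype or other treatment was given in the labels. The 58 female cells came from sequencing run DC21 and the 55 male cells from run DC35, as did all but 8 cells of the comparator subtypes, so sex, mouse and run cannot be told apart there.

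Airway smooth muscle forms bundles around the bronchi and bronchioles, and its tone sets airway width. Smooth muscle shortens when calcium activates myosin light chain kinase, so that myosin pulls on actin filaments. Acetylcholine from vagal nerves drives contraction through muscarinic receptors. During lung growth, hedgehog protein from the epithelium and Wnt, FGF and BMP signals pattern this layer. Smooth muscle of arteries shares most of the contractile proteins, so genes other than these are needed to separate them.

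For each mouse, the reads of all cells of a subtype were added up. The 58 female and 55 male cells held 51077950 and 44910288 reads in the gene table. The shallowest single cell had 67271 reads, the median cell 734066 and the deepest 2669449. After every cell had been reduced at random to 100000 reads, the median cell of the female had 1893 detected genes and that of the male 1717, with 1 male cell too shallow to enter. Levels are given as CPM, the reads of a gene for a fixed total of reads, after scaling between libraries, and they were not divided by gene length, so levels are compared between subtypes and never between genes. A gene without reads could have been at up to 0.0587 CPM in the female and 0.0668 in the male, the level of 3 reads, and a gene seen in 0 of 113 cells could be present in up to 2.65% of them. These limits cover counting error only, because copied reads were not collapsed to molecules.

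**Figure D1:**
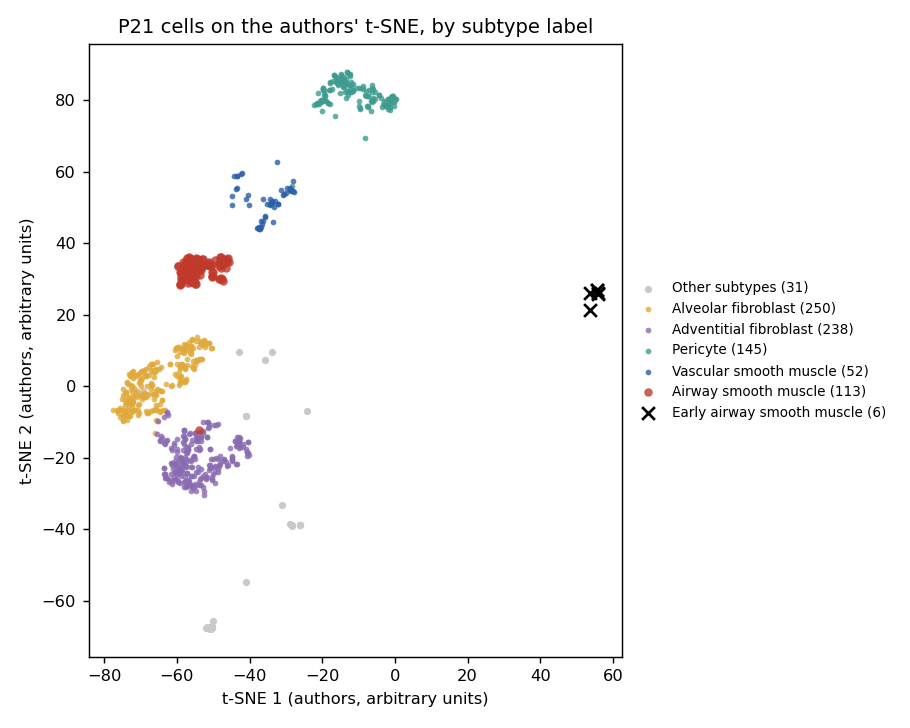
Each point is 1 P21 cell at the authors' t-SNE coordinates (arbitrary units), coloured by subtype label, with cell numbers in the key. The 113 cells labelled airway smooth muscle form 1 compact group apart from the 52 vascular smooth muscle cells, and the 6 P21 cells labelled early airway smooth muscle (crosses) lie far from both.

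The 5 markers given for the class did not behave alike. Hhip, a membrane protein that binds and blocks hedgehog ligands, was at 5094 CPM in the female and 5758 in the male. No other library passed 195 CPM of Hhip, and 109 of the 113 cells had reads. Lgr6, a receptor for the Wnt enhancers called R-spondins, was at 115 and 185 CPM, against at most 38.2 CPM elsewhere, and 58 cells had reads. Actg2 (smooth muscle gamma-actin), Myh11 (smooth muscle myosin heavy chain) and Des (desmin) went the other way. Actg2 was at 246 and 152 CPM here and at 1356 and 2239 CPM in vascular smooth muscle. Myh11 was at 206 and 121 CPM here, against 1187 and 1231 CPM there. Des was at 154 and 192 CPM, against 518 and 362. In both mice each of these 3 genes was thus below its level in vascular smooth muscle. All 3 were higher than in either kind of fibroblast.

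Each of these 3 contractile markers lacked reads in most single cells. Actg2 was detected in 37, Myh11 in 44 and Des in 42 of the 113 cells. In 43 cells none of the 3 was found, in 32 cells 1 was, in 23 cells 2 were and in 15 cells all 3 were. At 100000 reads per cell Actg2 was found in 27.6% of the female and 27.8% of the male cells, against 65.6% and 73.7% of vascular smooth muscle cells. No pericyte had Actg2 at that depth, so these shares were above that background. Without thinning the Actg2 shares were 32.8% and 32.7%. The contractile markers therefore go partly against the label, while Hhip and Lgr6 were higher than in each comparator subtype. They do not separate the group from P21 cells labelled early airway smooth muscle, all 6 of which had reads of both. In what follows the 113 cells are called the Hhip-high cells, and no other cell type name is given to them.

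A further 6 cells at P21 carried the label early airway smooth muscle, 4 in the female and 2 in the male. All 6 had reads of all 5 markers. Their summed Actg2 was 4080 CPM in the female and 2582 in the male, and their Acta2 (smooth muscle alpha-actin) 22784 and 20440 CPM, on a scale of total reads. Their Hhip was 2082 and 2083 CPM on that scale, against 5025 and 5532 in the Hhip-high cells. Lum, the matrix proteoglycan lumican, had reads in 1 of the 6 and Dcn, decorin, in none, whereas 81 and 61 of the 113 Hhip-high cells had reads of these 2 genes. With 6 cells no comparison was made beyond these values.

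**Figure D2:**
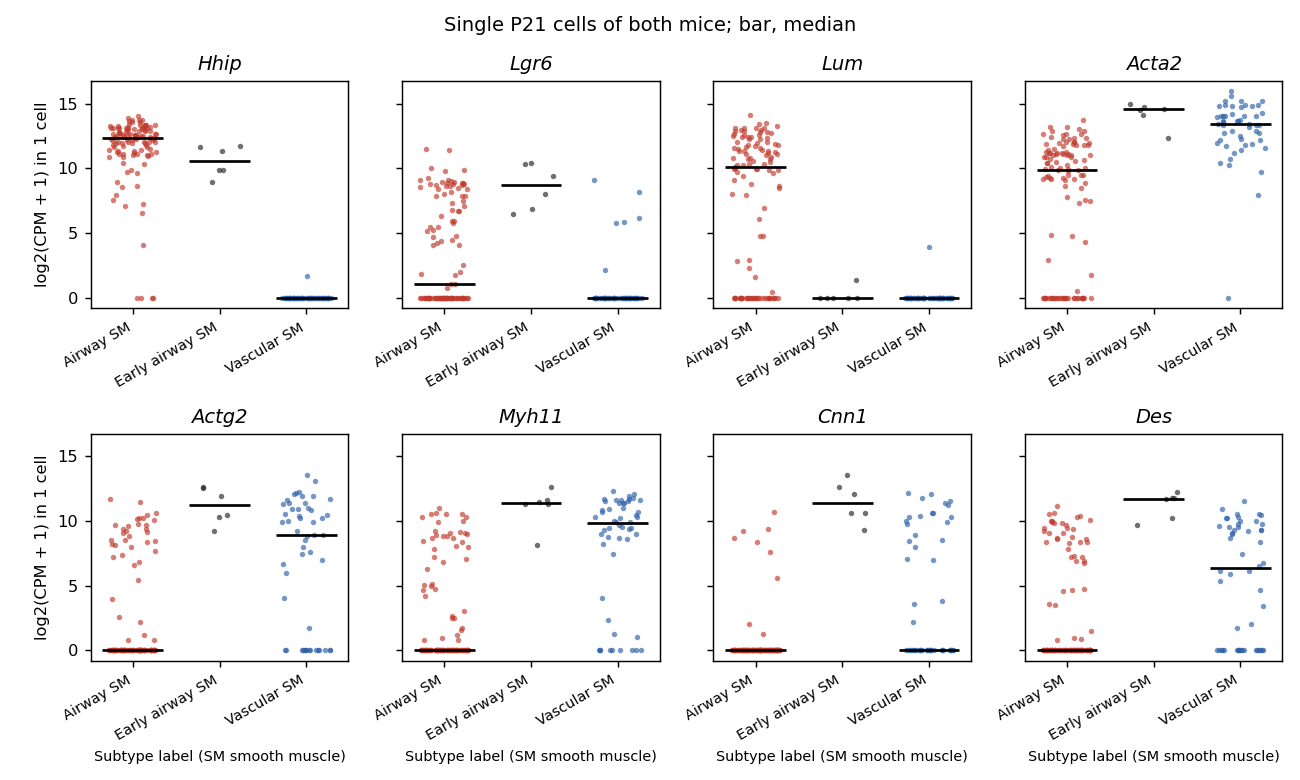
Each point is 1 P21 cell and each bar the median of its label, as log2(CPM + 1) per cell. Hhip and Lum are high in most cells labelled airway smooth muscle and at 0 in most vascular smooth muscle cells, while the medians of Actg2, Myh11, Cnn1 and Des are at 0 in the 113 cells and high in the 6 early ones.

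The subtype names come from expression, so a subtype set against the others is no independent test, and values, folds and counts are given without a p-value. A gene was counted as higher or lower when log2(CPM + 1) differed by at least 1 from each comparator in both mice, with at least 10 CPM on the higher side. Of 14437 genes, 181 were higher in the Hhip-high cells than in each of the other 4 subtypes, which is 1.25%. Another 50 (0.346%) were lower than in each. Against vascular smooth muscle alone, 1070 genes (7.41%) were higher and 763 (5.29%) lower. Counts within gene lists below are to be read beside these shares, and no list was tested against them. Of the 181 genes, 66 met the rule in each of the 4 plates of Hhip-high cells, and 123 met it when every cell had equal weight. In the female alone 592 genes met it and in the male alone 764.

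The 24 genes with the largest fitted differences from the other subtypes included a hormone precursor, membrane and cytoskeletal proteins, receptors and oxidising enzymes. Cdh4, the adhesion protein R-cadherin, was at 787 CPM in the female and 629 in the male, against 39.8 and 15.0 CPM in adventitial fibroblasts, the next highest, and 79 of the 113 cells had reads. Cyp2e1, a cytochrome P450 that oxidises small molecules, was at 1128 and 1040 CPM, 32.5-fold and 55.8-fold above adventitial fibroblasts. Agt, the precursor of angiotensin, was at 248 and 417 CPM and had no reads in vascular smooth muscle or pericytes of either mouse. The next highest Agt levels were 42.2 CPM in female alveolar fibroblasts and 0.073 CPM in male adventitial fibroblasts.

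Several of these genes are best known from nerve and muscle cells. Chrm2, the M2 muscarinic acetylcholine receptor, was at 67.7 and 30.3 CPM, 31.9-fold and 10.5-fold above adventitial fibroblasts, and 30 cells had reads. Cntfr, the receptor of ciliary neurotrophic factor, was at 38.0 and 25.4 CPM, and Plxna4, a receptor of guidance semaphorins, at 42.0 and 27.2. Cacna2d3, an auxiliary subunit of calcium channels, was at 40.5 and 108 CPM, and Rbfox1, a splicing regulator of muscle and neurons, at 65.8 and 44.5. Fhod3, a formin that assembles actin, was at 23.5 and 46.7 CPM.

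The remaining genes were secreted, membrane, signalling and metabolic proteins. Sbspon, a secreted matrix protein, was at 46.4 and 23.7 CPM with no reads in any other subtype, at least 339-fold and 163-fold above the level of 3 reads there, but in 17 cells only. Megf10, an engulfment receptor also found in muscle precursors, was at 110 and 64.3 CPM, and Fam180a at 154 and 150. Trim67, a ubiquitin ligase of the tripartite motif family, was at 82.1 and 191 CPM. Fgf9, a growth factor, was at 28.0 and 43.5 CPM, in 17 cells. By plate, on a scale of total reads, it was at 68.6 and 1.38 CPM in the female and at 10.8 and 87.7 in the male. Rab38, a small GTPase of vesicle transport, was at 80.3 and 165 CPM, and Egln3, a prolyl hydroxylase of the hypoxia pathway, at 42.1 and 33.2. Acss1 was at 56.4 and 29.0 CPM in 11 cells, Lrrc3b at 30.5 and 24.4, and Cyp2c23 at 24.0 and 70.6 in 14 cells. In the female Cyp2c23 was 2.18-fold above vascular smooth muscle, whose 11.0 CPM came from 1 cell. The remaining 3, 1500035N22Rik, 1500015O10Rik and 2900055J20Rik, are transcripts without an established name, and 1500015O10Rik was at 96.0 and 171 CPM. Of the genes shown, Lrrc3b was found in the fewest cells (9) and Hhip in the most.

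**Figure D3:**
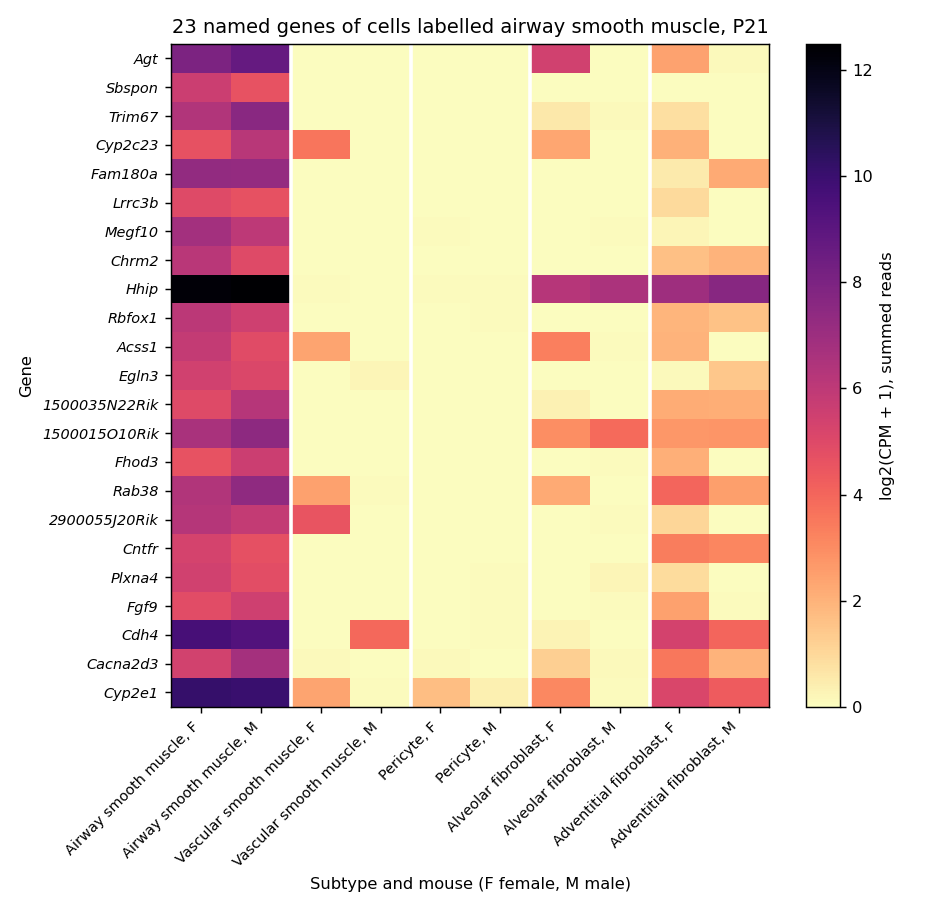
Rows are 23 of the 24 genes chosen by rule and columns the summed reads of each subtype and mouse, coloured by log2(CPM + 1). Both airway smooth muscle columns are darker than the others of the same mouse in every row. Hhip reaches 195 CPM in male adventitial fibroblasts, the highest value outside the Hhip-high cells.

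The contractile machinery was present but low beside vascular smooth muscle. All 20 listed genes for contractile and cytoskeletal proteins passed the filter on low counts. Of these, 12 were lower than in vascular smooth muscle and 1 was higher, against 5.29% and 7.41% of all genes. The median difference of the 20 was -1.76 on the log2(CPM + 1) scale, against 0.0910 over all genes tested. The list was chosen with earlier results of these data known. Acta2 was at 1434 CPM in the female and 2071 in the male, against 13559 and 19176 in vascular smooth muscle, a fitted log2 difference of -3.23 (SE 0.35, 2 mice). Pericytes and fibroblasts had 54.9 to 186 CPM of Acta2, below both Hhip-high libraries.

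Cnn1, the actin-binding protein calponin, was at 23.9 and 34.6 CPM here and at 651 and 562 there, and 9 of 113 cells had reads. Myl9, the regulatory light chain of myosin, was at 1087 and 1300 CPM, against 4628 and 6773. Mylk, its kinase, was at 346 and 475 CPM, against 925 and 1572, which placed the Hhip-high cells near pericytes (383 and 510). Tagln, the actin-binding protein transgelin, was at 167 and 162 CPM, against 720 and 781. Tpm1 and Tpm2, the tropomyosins, and Lmod1, leiomodin, were also lower than in vascular smooth muscle, with fitted log2 differences of -1.70 (SE 0.35), -2.06 (SE 0.62) and -1.79 (SE 0.58). Ldb3, a Z-disc protein, had no reads in either mouse of the Hhip-high cells and 53.6 and 80.3 CPM in vascular smooth muscle.

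Other members did not follow. Pdlim3, an adaptor that binds alpha-actinin, was at 454 and 720 CPM against 185 and 49.2 in vascular smooth muscle, and it was the 1 list member higher than in each other subtype. Csrp1, a LIM protein of smooth muscle, was at 721 and 594 CPM, against 594 and 879, and the mice differed in direction for it and for Synm, an intermediate filament protein. Smtn, Pdlim7 and Synpo2 were below vascular smooth muscle in both mice, but by less than 1 on the log2 scale in at least 1 mouse.

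**Figure D4:**
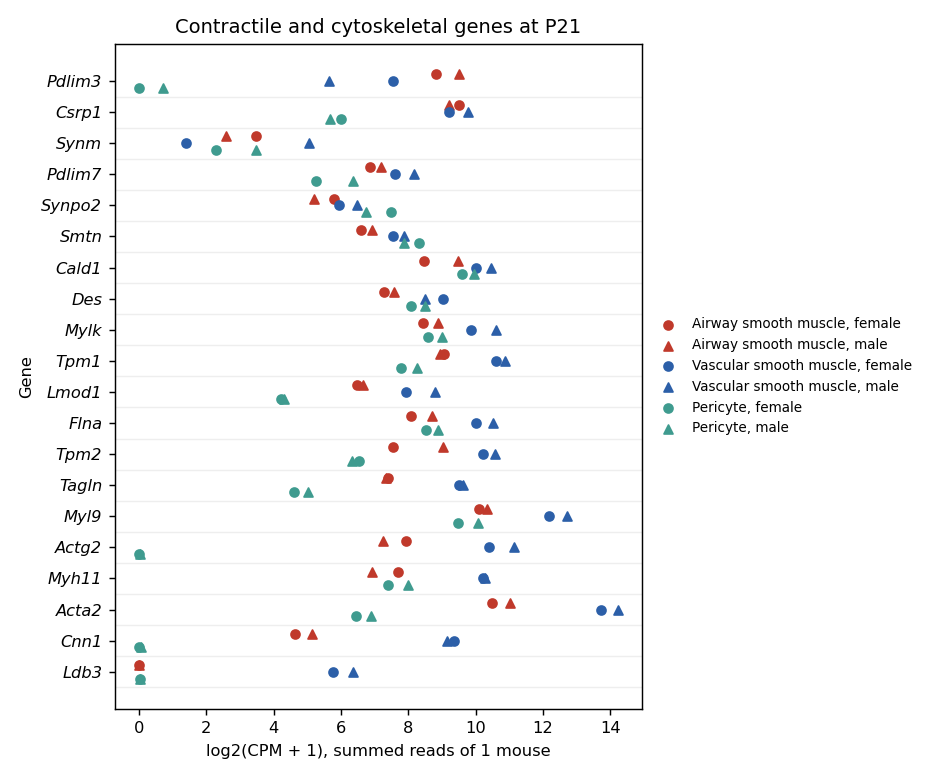
Points give log2(CPM + 1) of 20 contractile and cytoskeletal genes in each mouse (circle, female; triangle, male) for 3 subtypes. Airway smooth muscle (red) lies left of vascular smooth muscle (blue) for most genes, by most for Ldb3 and Cnn1, and right of it for Pdlim3.

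Serum response factor binds the CArG box, a motif of smooth muscle genes, and the box was therefore looked for in the 250 bases before each gene start, in RefSeq sequence of mouse build GRCm38.p6. A box was counted only as CC, then A or T bases alone, then GG, 10 bases in all with no mismatch. The pattern reads alike on both strands. Of all 27025 symbols with such a window, 439 had a box (1.62%), and of 10812 among the genes tested here, 156 (1.44%). None of the 128 genes with a window among those higher in the Hhip-high cells had one. Of 576 genes lower than in vascular smooth muscle, 19 had a box (3.30%), and of 813 that were higher, 5 had one (0.615%). Among contractile proteins 2 of 17 had a box, Ldb3 and Myl9. These are shares of gene groups defined by the same contrast and no test was made. Boxes outside this window, or with any other base inside, were not looked for. A window without a counted box says nothing of the factor. The boxes of Ldb3, Myl9 and the sarcomeric actin gene Actc1, all lower in the Hhip-high cells, are shown in capitals with up to 40 bases on each side. Actc1 was at 177 and 44.0 CPM, against 1925 and 1970 in vascular smooth muscle.
Myl9, chr2:156775263-156775352, plus strand: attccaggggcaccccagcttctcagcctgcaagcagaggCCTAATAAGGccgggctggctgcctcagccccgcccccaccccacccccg
Ldb3, chr14:34588667-34588756, minus strand: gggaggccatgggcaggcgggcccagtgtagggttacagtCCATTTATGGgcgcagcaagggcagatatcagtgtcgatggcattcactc
Actc1, chr2:114052876-114052962, minus strand: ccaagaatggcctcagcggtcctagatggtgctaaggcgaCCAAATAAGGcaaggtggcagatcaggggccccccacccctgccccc

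Among 18 regulators of contraction, 6 were lower than in vascular smooth muscle and 1 was higher, against 5.29% and 7.41% of all genes. The higher one, Rgs2, switches off the G protein signal of contracting receptors. It was at 3416 and 5384 CPM, against 596 and 853 in vascular smooth muscle and at most 401 elsewhere, and 110 of 113 cells had reads. Myocd, the coactivator that switches on smooth muscle genes, was at 190 and 144 CPM. Vascular smooth muscle had 402 and 203 CPM, in the male less than 1 log2 unit more, and no other subtype passed 1.87 CPM. The nitric oxide receptor subunits Gucy1a1 and Gucy1b1 were lower than in vascular smooth muscle, and so were Prkg1, the kinase that acts after them, Rgs4, Rock2 and Ppp1r14a. Srf, the factor that binds CArG boxes, was at 24.0 and 17.9 CPM, within the range of the other subtypes (5.24 to 38.5). Gucy1a1 was at 107 and 84.2 CPM, against 2225 and 1149 in vascular smooth muscle and 7628 and 7705 in pericytes.

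Of 20 ion channel and calcium handling genes, 19 passed the filter on low counts. Of these, 6 were lower than in vascular smooth muscle and 1 was higher, against 5.29% and 7.41% of all genes. The higher one was Kcnma1, the pore of the large calcium-activated potassium channel, at 79.6 and 14.8 CPM against 35.1 and 0. Kcnma1 differed between plates, with 14.4 and 120 CPM in the female and 7.02 and 24.8 in the male, on a scale of total reads. Its smooth muscle subunit Kcnmb1 was at 0.0992 and 2.25 CPM, against 97.5 and 34.5. Ano1, a calcium-activated chloride channel, was at 0.0595 and 0 CPM, against 179 and 367, and P2rx1, an ATP-gated channel, had no reads, against 29.9 and 74.3. Kcnab1, a potassium channel subunit, was at 0.0198 and 0.0232 CPM, against 5.37 and 28.5. Cacnb2, a calcium channel subunit, was at 14.8 and 6.95 CPM, within the range of the others. Kcnj8 and Abcc9, the subunits of the ATP-sensitive potassium channel, were at 430 and 395 CPM and at 266 and 205 CPM. Kcnj8 was above every other library (289 CPM at most), though by less than 1 log2 unit over vascular smooth muscle in the male.

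Receptors that set airway tone were a mixed group. Of 27 listed, 25 were in the table and 23 passed the filter on low counts. Chrm2 was the 1 higher than in each other subtype. It and 4 more, among them Adra1a, Ptger2 and Ptger3, were higher than in vascular smooth muscle, and none was lower. Among all genes tested, 1.25% were higher than in each subtype, and 7.41% higher and 5.29% lower than in vascular smooth muscle. Adra1a, an alpha-1 adrenergic receptor, was at 14.2 and 30.5 CPM, and alveolar fibroblasts had more (131 and 133). Ptger2, a prostaglandin E2 receptor, was at 57.2 and 258 CPM. Chrm3, the muscarinic receptor known for airway contraction, was at 0.198 and 1.39 CPM, with reads in 4 cells, and Cysltr2, a leukotriene receptor, was at 0.357 and 0. Ednrb, an endothelin receptor, was at 838 and 442 CPM, against 129 and 283 in vascular smooth muscle and at most 12.7 CPM elsewhere. Ednra, the other endothelin receptor, was at 885 and 315 CPM, and no further apart from vascular smooth muscle (969 and 334) than the mice were from each other.

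Of 11 members of the hedgehog pathway, all measured, Hhip was the 1 higher than in each other subtype, and Boc, a coreceptor, was higher than in vascular smooth muscle (113 and 162 CPM, against 23.2 and 36.1). The shares of all genes in these 2 classes were 1.25% and 7.41%. Ptch1, the hedgehog receptor, was at 48.6 and 52.2 CPM, below pericytes (187 and 205) and adventitial fibroblasts (122 and 153), and against 80.1 and 3.31 in vascular smooth muscle. Gli1, a transcription factor that the pathway induces, was at 1.25 and 8.85 CPM, against 29.4 and 0 in vascular smooth muscle. Gli2, the main activator, was at 17.8 and 10.1 CPM and Smo, the signal transducer, at 32.7 and 42.8, both within the range of the other subtypes. Ptch1 and Gli1 are known, like Hhip itself, as genes that hedgehog signals induce.

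Wnt pathway genes included 4 of 24 that were higher than in each other subtype, against 1.25% of all genes. These 4 were Lgr5, Lgr6, Wnt5a and Wnt11. Lgr5, another R-spondin receptor, was at 129 and 61.0 CPM, with 34 cells positive and at most 29.3 CPM elsewhere. Wnt5a, a ligand of the noncanonical branch, was at 817 and 540 CPM, against 229 and 162 CPM in the next highest subtypes of the female and the male, and 88 cells had reads. Wnt11 was at 23.6 and 23.3 CPM. Wnt4 was lower than in vascular smooth muscle (0 and 0.0232 CPM, against 53.8 and 16.0), and Wnt2, the ligand of alveolar fibroblasts (238 and 414 CPM), had no reads. Lgr4, the third of these receptors, was at 7.22 and 6.63 CPM, within the range of the others. Lef1, a transcription factor of the canonical branch, was at 0 and 0.0927 CPM. Axin2 and Nkd1, targets of canonical Wnt, pointed opposite ways against vascular smooth muscle in the 2 mice.

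Of 12 Notch pathway genes that passed the filter on low counts, 5 were lower than in vascular smooth muscle and none was higher. The shares of all genes tested were 5.29% and 7.41%. Notch3, the main Notch receptor of mural cells, was at 2.22 and 0 CPM, against 465 and 291 in vascular smooth muscle and 833 and 614 in pericytes. Heyl, its transcriptional target, was at 0.556 and 20.8 CPM and lower than in each other subtype, 3 cells having reads. Hey2, a related target, was at 0.0198 and 0.0464 CPM, against 58.5 and 68.1, while Hes1 (117 and 60.4 CPM) was within the range of the others. Nrarp had no reads. Jag1, a ligand, was at 0.159 and 0 CPM, against 73.7 and 60.1. Notch2 (48.0 and 38.8 CPM) was close to vascular smooth muscle (47.9 and 44.2), by less than the difference between the mice.

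In the BMP and TGF-beta pathways 5 of 27 genes were higher and 5 lower than in vascular smooth muscle. Over all genes the shares were 7.41% and 5.29%. Bmp5, a ligand, was at 218 and 274 CPM, against 17.9 and 63.8, and Tgfb3 at 421 and 466 CPM, against 191 and 25.6. Id1, a gene that BMP signals induce, was lower than in each other subtype at 20.0 and 7.14 CPM, while Id3, from the same family, was at 1800 and 4276 CPM. Ltbp2, which anchors in elastic fibres, and the BMP blocker Chrdl1 were lower than in vascular smooth muscle. Nog, another BMP blocker, was at 1.31 and 6.42 CPM in 16 cells, and at 0.0833 CPM or less in all other libraries. Bmper was at 0.238 and 0 CPM, and Fstl1 (1367 and 2072 CPM) within the range of the others.

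Growth factors known to act on lung epithelium were among the genes higher than in vascular smooth muscle. Of 23 growth and nerve factors 4 were higher, Fgf7, Fgf9, Fgf10 and Igf1, and 5 were lower, among them Bdnf, Ntf3, Pdgfa and Pdgfrb. Over all genes the shares were 7.41% and 5.29%. Fgf10 was at 32.3 and 78.7 CPM, below alveolar fibroblasts (156 and 167). Fgf7 was at 276 and 187 CPM, Igf1 at 454 and 1130 CPM. Fgf18 was at 124 and 127 CPM, with 0 and 152 CPM in vascular smooth muscle, so the mice disagreed. Pdgfc was at 21.4 and 9.87 CPM and at 0.0183 CPM or less elsewhere, and the male value missed the minimum of 10. Fgf2 was at 9.21 and 30.5 CPM, within the range of the others. Pdgfra, the receptor that marks alveolar fibroblasts and myofibroblasts, was at 14.3 and 1.14 CPM.

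Of 26 genes of elastic fibres and interstitial matrix 8 were higher and 2 lower than in vascular smooth muscle. The shares of all genes were 7.41% and 5.29%. None of the 26 met the rule for higher or lower than in each other subtype. Lum was at 2055 and 3115 CPM, above adventitial fibroblasts (1679 and 1595), against 0.130 and 0 in vascular smooth muscle. Dcn was at 969 and 1335 CPM, below the 9722 and 13359 of adventitial fibroblasts. Col3a1, a fibrillar collagen, was at 6341 and 7566 CPM, against 3057 and 3232 in vascular smooth muscle. Eln, elastin, was at 790 and 801 CPM, below vascular smooth muscle and both fibroblasts (2059 CPM or more). Fbln5, which organises elastin, was at 15.4 and 0.579 CPM, against 136 and 36.3 in vascular smooth muscle. Col1a1 was detected in all 113 cells, at 1751 and 1907 CPM, against 16761 and 17447 in adventitial fibroblasts.

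Of 26 genes of basement membrane and integrins, 10 were lower than in vascular smooth muscle, 4 of them lower than in each other subtype, and none was higher. Among all genes tested, 5.29% were lower and 7.41% higher than in vascular smooth muscle, and 0.346% were lower than in each subtype. Lamb1, a laminin chain, was at 20.2 and 6.19 CPM, against 170 CPM or more in every other library. Npnt, nephronectin, was at 1.79 and 2.22 CPM, and its receptor chain Itga8 at 4.15 and 0.139. Nid1, which links laminin to collagen IV, was at 99.7 and 32.2 CPM, against 359 and 100.1 CPM in vascular smooth muscle, and its relative Nid2 had no reads, against 7.02 to 254 CPM. Lamc3, a laminin chain that is also a pericyte marker, was at 0 and 0.0464 CPM. Col4a1 was at 165 and 110 CPM, against 524 and 286 in vascular smooth muscle. Lamb2, the alternative to Lamb1, was at 268 and 164 CPM, within the range of the other subtypes.

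Of 35 transcription factors of lung mesenchyme in the table, 7 were higher and 7 lower than in vascular smooth muscle. Over all genes the shares were 7.41% and 5.29%. Foxf1, a target of hedgehog in lung mesenchyme, was at 296 and 76.2 CPM, against 94.8 and 1.88, and pericytes had more (428 and 227). Sox9 was at 42.5 and 35.6 CPM, against 0.303 and 0, and close to adventitial fibroblasts (28.6 and 23.9). Tcf21, a fibroblast factor, was the 1 gene lower than in each other subtype, at 6.55 and 0 CPM, in 2 cells. Meox2 and Foxs1 had no reads, against 13.2 and 174 CPM and 34.9 and 80.2 CPM in vascular smooth muscle. Tbx5, needed for lung budding, was at 114 and 75.5 CPM, against 256 and 76.1. Hoxa5 was at 31.2 and 22.4 CPM, within the range of the others.

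A list of 8 myofibroblast genes had 5 members higher than in each other subtype, Hhip, Enpp2, Aspn, Wnt5a and Stc1, and 6 higher than in vascular smooth muscle. The shares of all genes were 1.25% and 7.41%. Enpp2, autotaxin, which makes lysophosphatidic acid, was at 3944 and 3955 CPM, against 1010 and 894 in pericytes, the next highest. Aspn, asporin, was at 1812 and 3129 CPM, against 455 and 1199 in vascular smooth muscle. Pdgfra was the exception noted above. Mustn1 was above vascular smooth muscle in both mice (2198 and 4525, against 1342 and 3145 CPM), by less than 1 log2 unit. Hhip is on this list and among the 5 markers of the label.

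Markers of other cells were at or near 0 for some lists and not for others. Pericyte genes Higd1b, Ndufa4l2 and Trpc6 were at 0.0695 CPM or less, and the summed level of 10 pericyte genes was 862 and 736 CPM, most of it from Kcnj8 and Abcc9, against 7868 and 9696 in pericytes. Cox4i2 was at 35.9 and 21.1 CPM, against 1897 and 3381. Of 10 vascular smooth muscle markers 7 were lower than there and none was higher, against 5.29% and 7.41% of all genes. Mcam was at 21.4 and 14.7 CPM and Tinagl1 at 0.0794 and 0.0232. The 10 summed to 3657 and 6636 CPM, nearly all from Mustn1 and Acta2, against 17890 and 24010 in vascular smooth muscle. Of 10 adventitial markers Pi16 and Ly6a had no reads. Another 3, Mfap5, Cd34 and Dcn, were higher than in vascular smooth muscle, against 7.41% of all genes. The 10 summed to 1896 and 3413 CPM, against 18870 and 28640 in adventitial fibroblasts. Alveolar fibroblast markers summed to 264.9 and 410.5 CPM, against 28830 and 37940. Epithelial markers summed to 8.31 and 31.7 CPM, nearly all Sftpc, which lay at 0 to 37.1 CPM in every library. Endothelial markers summed to 5.54 and 0.695 CPM and immune markers to 12.6 and 20.6, with Ptprc at 0.0595 and 0.116. Most of the immune sum was Cd68. By plate, on a scale of total reads, it was at 2.16 and 18.9 CPM in the female and at 20.0 and 14.9 in the male. Among the 7 immune markers that passed the filter, 1 was higher than in vascular smooth muscle, against 7.41% of all genes. Of the erythroid and mesothelial markers, Hba-a1, Alas2 and Upk1b passed the filter on low counts and had no reads. No cartilage marker passed it. These sums cover the members that passed. Striated muscle markers other than Actc1 were low, with Tnnt3 at 0.417 and 3.99 CPM and Acta1 at 0.159 and 0.301. S100b, a calcium-binding protein of glia and some other cells, was higher than in each other subtype, at 15.2 and 33.6 CPM in 15 cells. Of 15 genes of dividing cells, Top2a, Birc5 and Bub1 did not pass the filter on low counts. Mki67 was at 2.64 and 17.5 CPM, Cdk1 at 0 and 0.0464, and Mcm5 at 0 and 27.0, from 1 cell. Pcna, which also serves DNA repair, was at 74.5 and 61.0 CPM, against 38.1 to 251 CPM in the others.

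Immediate early genes, which respond within minutes to stimulation and to tissue dissociation, were high. The 12 genes of the immediate early and heat shock list summed to 54400 CPM in the female and 40580 in the male, against 5025 to 29310 CPM in the other subtypes. Junb and Atf3 were higher than in each other subtype, with Atf3 at 3678 and 3160 CPM against 803 and 578 in vascular smooth muscle. Fos was at 13799 and 10438 CPM, above every other library (7650 CPM at most). Dusp1 was at 4997 and 5164 CPM, against 4037 and 6615 in vascular smooth muscle. Hspa1a and Hspa1b, heat shock genes, were lower than in vascular smooth muscle, at 359 and 303 CPM for Hspa1a against 2161 and 1781. The part of handling in the differences between subtypes was not tested.

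The genes lowest beside the other subtypes were Wisp1, Cbfa2t3, Lrrc32, Cdc42ep2, Nt5dc2 and Npnt. Wisp1, a matricellular protein that Wnt signals induce, had no reads in either mouse, against 28.2 to 820 CPM in the other 8 libraries. Cbfa2t3, a corepressor of transcription, was at 0 and 0.0464 CPM, against 24.5 to 317. Lrrc32, which docks latent TGF-beta at the cell surface, was at 0.0198 and 0.0464 CPM, against 20.5 to 139. Cdc42ep2 and Nt5dc2 did not pass 0.487 CPM. When the 16 striated muscle cells of the female were added as a comparator, 4 genes were lower than in each subtype and 165 higher.

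Against vascular smooth muscle the largest differences upward were Agt, Hhip, Trim67, Fam180a, C3, Sulf1, 1500015O10Rik and Kctd16. C3, a complement protein, was at 189 and 146 CPM, with no reads in vascular smooth muscle and more in adventitial fibroblasts (1353 and 1499). Sulf1, an extracellular sulfatase that trims heparan sulfate, was at 162 and 117 CPM, against 0 and 0. Kctd16, an auxiliary subunit of GABA-B receptors, was at 131 and 46.6 CPM, against 0 and 0. Those furthest down were Steap4, Slc11a1, Esam, Prss23, Gja4, Trac, Vtn and Higd1b, and 7 of them had no reads in the Hhip-high cells. Some rest on few vascular cells, with Steap4 in 1 of 33 and 2 of 19, Gja4 in 9 and 2, Trac in 7 and 2, Vtn in 10 and 3 and Higd1b in 8 and 3. Prss23, a serine protease, had 1 Hhip-high cell with reads, against 992 and 2146 CPM in vascular smooth muscle. Gja4, connexin 37 of vessel walls, was at 502 and 20.4 CPM there, and Vtn, vitronectin, at 114 and 233.

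Age was tested on early and later airway smooth muscle cells joined, with 1 library per mouse from P1, P7, P7 in hyperoxia and P21 (8 libraries, 22 to 75 cells each). All 75 and 64 cells of the P7 mice carried the early label, against 4 of 62 and 2 of 57 at P21, so age and label can hardly be told apart. With edgeR's quasi-likelihood test and Benjamini-Hochberg adjustment, 99 of 13496 genes (0.734%) rose from P7 to P21 and 53 (0.393%) fell. All 152 pointed the same way in females and males. The same libraries gave the calls, so this agreement is no independent replication. The male P7 and P21 cells were from 1 sequencing run, DC35, and those of the female, at least in the main, from DC20 and DC21, so the male difference is a difference within a run. It rests on 1 mouse an age. In a fit of only the 4 mice of P7 and P21, 24 of 40 genes followed lost the call. Among these were Hhip, Enpp2, Rgs2, Mustn1, Actg2, Cnn1, Mfap2, Mfap4 and Dcn, with edgeR adjusted p from 0.058 to 0.0928, and also Eva1a, Emilin3, Inka1, Sfrp4, Junb, Jun, Egr1, Ier2 and Nr4a1. Leaving out a P7 mouse lowered the counts most, to 38 and 24 without the female and 28 and 17 without the male. Without the P21 female they were 117 and 144, and without the P21 male 67 and 49. CPM in this fit were scaled among these 8 libraries and differ a little from those above. Whether the 2 mice of each group came from separate litters was not stated, so p-values measure the spread between these mice.

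Of the 181 genes higher than in each other P21 subtype, 24 rose from P7 to P21 and 5 fell. Over all genes tested, 0.734% rose and 0.393% fell. The P21 cells that chose the 181 genes also entered the age test, which favours rises, so these counts are no independent result. Hhip was at 927 and 1378 CPM at P7 and at 5756 and 6390 at P21, a log2 change of 2.43 (SE 0.32, edgeR adjusted p = 0.0116), and 2.21 in the males alone. Enpp2 rose by 2.26 (SE 0.35), from 761 and 1058 CPM to 4360 and 4291. Rgs2 rose by 2.53 (SE 0.34), from 773 and 858 CPM to 3815 and 6016. Mustn1 rose as well, by 2.34 (SE 0.34). None of these 4 passed the threshold without the P7 male, nor Hhip, Enpp2 and Mustn1 without the P7 female.

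Of 20 contractile genes, 2 fell from P7 to P21 and none rose, against 0.393% and 0.734% of all genes. The median change of the 20 was -0.899, against -0.0901 over all genes. Actg2 fell by 2.91 (SE 0.38, edgeR adjusted p = 0.0116), from 2921 and 3977 CPM at P7 to 544 and 383 at P21. Cnn1 fell by 2.34 (SE 0.35, edgeR adjusted p = 0.0162), from 1451 and 1875 CPM to 395 and 281. Acta2 was at 8855 and 11280 CPM at P7 and 3109 and 3968 at P21, with an edgeR adjusted p of 0.0535. The 6 early cells held much of what remained at P21. Without them, and with early cells alone at P7, the log2 change was -3.88 for Actg2 and -5.57 for Cnn1. Both calls were lost without the P7 male, and that of Cnn1 also without the P21 male.

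Of 26 elastic fibre and interstitial matrix genes, 4 fell, Mfap2, Mfap4, Tnc and Vcan, and 2 rose, Dcn and Ogn. The shares of all genes tested were 0.393% and 0.734%. Mfap4, a microfibril protein, went from 1803 and 2359 CPM to 278 and 129. Tnc, tenascin C, went from 1476 and 1299 CPM to 124 and 181. Dcn went from 0.214 and 7.01 CPM to 1068 and 1440. Lum was at 0 and 11.2 CPM at P7 and at 2265 and 3361 at P21, yet its edgeR adjusted p was 0.193. Tgfbi, a matrix protein that TGF-beta induces, fell from 8959 and 7790 CPM to 933 and 891 (edgeR adjusted p = 0.00563), and Ltbp2 from 1566 and 1288 CPM to 105 and 107. The Mfap2 call was lost without the P7 female, that of Vcan without the P7 male, and that of Ogn without either.

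The largest rises were Il6, Itih4, Mmp3, Ccl2, Rtp4 and C3, and the largest falls Wisp1, Eva1a, Emilin3, Lrrc15, Inka1 and Sfrp4. Il6, an inflammatory cytokine, was at 0.0089 and 0 CPM at P7 and at 360 and 618 at P21. Mmp3, a matrix-cutting protease, was at 0 in both P7 mice and at 37.9 and 728 CPM at P21. Wisp1 was at 96.5 and 85.0 CPM at P7 and had no reads at P21. Lrrc15 was at 494 and 559 CPM at P7 and at 0.153 and 0 at P21. Calls were lost without 1 library for Il6 (either P7 mouse), Mmp3 (P21 male), Rtp4 (P21 male or P7 male), C3 (either P21 mouse), Emilin3 (P7 male) and Eva1a (either P7 mouse or the hyperoxia female). Itih4, Inka1 and Sfrp4 were lost without any 1 of 4 or more libraries. Immediate early and heat shock genes moved with age too, and 8 of 12 rose, against 0.734% of all genes. Atf3 rose by 4.34 (SE 0.38, edgeR adjusted p = 0.0026), from 144 and 232 CPM to 4055 and 3410. Junb, Jun, Egr1, Ier2, Nr4a1, Hspa1a and Dnajb1 were the other 7, and each of these 7 calls was lost without either P7 mouse, while that of Atf3 was kept without any 1 mouse. Without the P21 female those of Hspa1a and Nr4a1 were also lost, and without a P1 mouse those of Egr1 (female) and Nr4a1 (either). The part of these genes in the remaining changes was not tested. The list summed to 14310 and 11930 CPM at P7, 22070 and 22010 at P1, and 60320 and 44990 at P21.

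**Figure D5:**
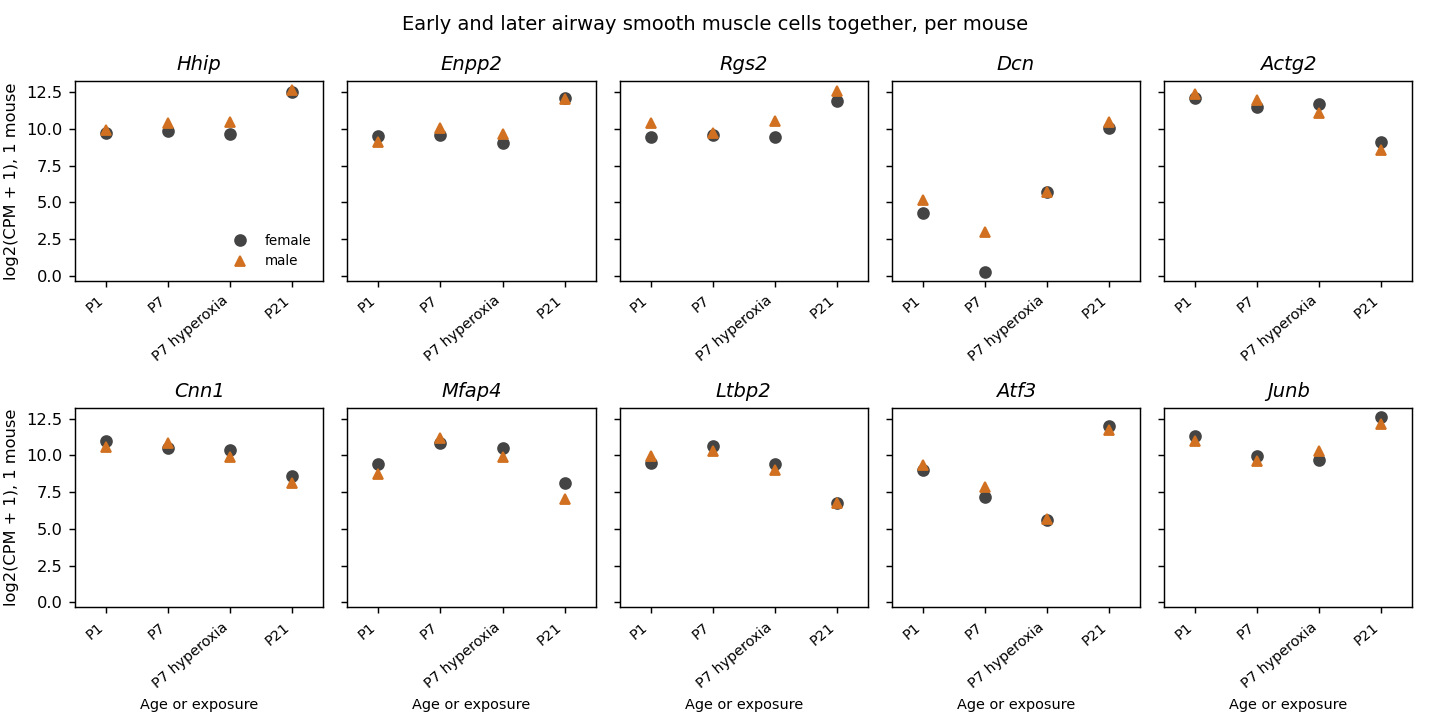
Points give log2(CPM + 1) of 10 genes in each mouse, early and later airway smooth muscle cells joined, by age or exposure. At P21 both mice lie above P7 for Hhip, Enpp2, Rgs2, Dcn, Atf3 and Junb and below it for Actg2, Cnn1, Mfap4 and Ltbp2.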

How the data were processed

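Single mesenchymal cells of mouse distal lung were sequenced in plates, with no extraction step, per the labels' protocols. The deposited values are read counts per gene and cell (18072 genes, 5480 cells, 0 mitochondrial genes), not normalized by the authors. Per the submitters' processing notes, reads were handled with STAR 2.5.2b and HTSeq 0.10 and the build was GRCh38, a human build, although the gene symbols are of mouse. No coordinates were taken from the counts for that reason. Strand was not stated, so reads of overlapping and antisense genes cannot be told apart, and actin paralogs such as Acta2, Actg2 and Actc1 are uncertain where reads could be split. No molecular identifiers are named. Subtype, mouse, run, plate and t-SNE coordinates came from the labels, and cells were not clustered again or screened for doublets. Among the cells used, 0 pairs had identical counts, and libraries shared 0 cell names.

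Counts were summed per mouse and subtype (10 libraries) and analysed in R 4.3.3 with edgeR 4.0.16 (TMM, filterByExpr, quasi-likelihood fit with subtype and mouse, 4 residual degrees of freedom). Fitted log2 differences carry an SE and no p-value. The age fit used group and sex (3 residual degrees of freedom, two-sided, threshold 0.05). DESeq2 1.42.0 was an alternative. Both steps were run on simulated data. For the fold rule these data held counting error only, with no spread between mice or cells, so they cannot show how the rule behaves under such spread. The members and the 28 gene lists were chosen with earlier results of these data known. Genes named were the 24 largest of those higher and 6 of those lower than in each subtype (20 CPM or more on the higher side), 8 each way against vascular smooth muscle, 6 each way by age with at least 10 CPM in 1 group, the 5 markers, and list members described in the text, among them the 2 largest and the smallest fitted differences of most lists. Of 413 list entries 403 were in the table, 3 by an older symbol. RefSeq promoter windows were matched by symbol. Some genes of the lists and of the naming rule are counted but not reported here.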

Additional observations from a re-analysis of the deposited data

Results flagged for a closer look

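Of 343 list members, 5 differed at least 2-fold from vascular smooth muscle in opposite directions in the 2 mice, with at least 50 CPM in the higher library. The share over all genes tested was not computed. The difference between the mice was not tested, and the male vascular library held 19 cells. Of these cells, 2 had reads of Tbxa2r, 7 of Axin2, 2 of Nkd1, 3 of Fzd1 and 4 of Bmp3. Female minus male, the airway minus vascular difference in log2(CPM + 1) was -8.19 for Tbxa2r, the thromboxane receptor, and 5.94 for Axin2. It was -7.16 for Nkd1, -2.92 for Fzd1 and 2.95 for Bmp3. Tbxa2r was at 1.63 and 84.1 CPM in the female and male Hhip-high cells, and at 51.7 and 4.85 CPM in vascular smooth muscle. Nkd1 was at 60.6 and 140 CPM, against 189 and 2.03.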

How the results depend on the processing

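Counts of genes stayed within 1.5 times under RLE size factors, total reads, both pseudocounts, equal weight per cell, the added 6 early cells and the mesenchymal sort alone. At 4-fold, 57 genes were higher and 20 lower than in each subtype, and 518 higher and 361 lower than in vascular smooth muscle. With no level floor, 97 were lower than in each and 1638 higher than in vascular smooth muscle. With striated muscle added 4 were lower than in each, and in each of 4 plates 66 were higher and 25 lower. Requiring the rule in 1 mouse gave 592 to 764 higher and 354 to 362 lower than in each, and 2661 to 3302 higher and 2338 to 2558 lower than in vascular smooth muscle. Between ages, DESeq2 gave 569 rises and 594 falls, the 4 mice of P7 and P21 alone gave 50 and 10, and no low-count filter gave 88 falls. Leaving out 1 mouse gave 28 to 117 rises and 17 to 144 falls. Without the term for sex (no replicate block) there were 116 rises and 71 falls. No direction reversed among the 20 contractile genes, the 24 higher genes and the 40 genes followed by age, under the alternatives run for each, and other named genes were not recomputed. Fitted values with equal cell weight (not counts) or 1 mouse (no residual degrees of freedom) were not run. No paired analysis was possible because mice of different groups share no replicate number. The median difference of all genes from vascular smooth muscle was 0.199 (log2), and 0.144 under total reads, so smaller differences cannot be read as gene-specific.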

Other observations

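Genes outside the lists also stood apart in the Hhip-high cells at P21, and these 4 were picked after their values had been seen. Igfbp5, which binds insulin-like growth factors, was at 2049 and 2716 CPM, against 988 CPM or less elsewhere. Gja1, connexin 43 of gap junctions, was at 479 and 504 CPM, against 43.2 CPM or less. Myc was at 1597 and 809 CPM, and Pamr1 at 832 and 631 CPM, against 0 and 0.0494 CPM of Pamr1 in vascular smooth muscle. Myc was at 213 CPM or less in the other subtypes. It is itself known as an early response gene, and the immediate early sums were highest in these same libraries.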
